A study of Homo sapiens with 6 samples.

Results

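The MYC and MAX network is a group of transcription factors that pair through a helix-loop-helix leucine zipper and bind the same short DNA element. Its 10 members were taken by symbol from the deposited tables of 61860 genes. They are MYC, MYCN and MYCL, which activate genes when paired with MAX, MAX itself, and the MAX partners MXD1, MXD3, MXD4, MXI1, MNT and MGA. Of these 10, 9 passed the filter on low counts and MYCN did not. RNA was measured in 786-O cells, an established human line of clear cell renal cell carcinoma without functional VHL, which normally targets hypoxia-inducible factors for breakdown. The tested cells stably expressed a METTL3-directed short hairpin RNA (shRNA); METTL3 is the methyltransferase that writes N6-methyladenosine (m6A) on mRNA. Their counterparts stably expressed a control shRNA. Each group had 3 libraries, called A, B and C here after the column letters, and both groups shared the VHL-deficient background. The labels name no hairpin sequence and do not say whether the lines were clones or pools, or that the 3 libraries of a line were grown separately. The p-values therefore rest on a spread that may be purely technical.

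MYC drives ribosome production, nucleotide synthesis and cell growth, and its mRNA is short-lived and a known carrier of m6A, which IGF2BP proteins read. MAX is the shared partner with which the other members bind the E-box CACGTG, although some, such as MNT, can also pair with MLX. The MXD proteins and MNT bring the SIN3 corepressor to those sites, and MGA belongs to a variant Polycomb complex called PRC1.6. MXI1 is also known as a gene that hypoxia-inducible factors activate, in kidney cancer cells among others.

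Regions before RefSeq transcription start sites of 4 members are shown because the element that the network binds can be read in 2 of them. The windows shown for MXI1 and MXD1, the largest rises among the members, lack it. All are on GRCh38.p14 and come from RefSeq promoter windows of 250 bases, each cut at the first base that overlaps an annotated exon of the gene. The MXD1 and MXI1 windows shown lie inside the annotated genes, which begin at 69897688 for MXD1 and 110207605 for MXI1. For MXD1 no window at that first position was examined. They read 5′ to 3′ on the strand of the gene, and capitals mark CACGTG, which reads the same on both strands.
MNT, chr17:2401119-2401310, minus strand: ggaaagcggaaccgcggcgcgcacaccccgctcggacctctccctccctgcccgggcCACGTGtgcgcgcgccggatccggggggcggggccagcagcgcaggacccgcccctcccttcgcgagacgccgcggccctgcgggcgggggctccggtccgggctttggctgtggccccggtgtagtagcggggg
MXD4, chr4:2262295-2262359, minus strand: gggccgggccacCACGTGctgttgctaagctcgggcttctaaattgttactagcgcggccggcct
MXI1, the last of the 3 listed starts, chr10:110225746-110225992, plus strand: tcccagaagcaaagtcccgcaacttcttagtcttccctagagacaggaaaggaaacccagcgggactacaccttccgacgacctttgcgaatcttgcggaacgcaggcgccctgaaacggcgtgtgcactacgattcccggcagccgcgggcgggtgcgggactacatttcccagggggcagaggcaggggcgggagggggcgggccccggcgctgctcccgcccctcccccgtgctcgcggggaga
MXD1, chr2:69914859-69915040, plus strand: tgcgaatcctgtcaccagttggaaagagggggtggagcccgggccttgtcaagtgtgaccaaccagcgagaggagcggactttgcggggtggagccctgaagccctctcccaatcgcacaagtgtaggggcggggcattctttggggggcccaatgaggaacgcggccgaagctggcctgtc
RefSeq windows were matched for 9 members by symbol, 14 windows in all, of which 2 held CACGTG before the start. MYC had no window there, so its promoter was not examined. Across the 35116 windows of the whole RefSeq table the share was 6.34%. A match is a description of the letters and no measurement of binding.

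METTL3 was measured at 7.08, 6.46 and 8.01 FPKM in the shMETTL3 libraries A, B and C, against 22.88, 24.91 and 25.04 FPKM in the shControl libraries (FPKM divide fragments by transcript length and by the library total). Its log2 fold change was −1.80 (SE 0.08, adjusted p = 1.45e-07, edgeR). That level is the check on the labels, since 3 columns were assigned to the METTL3 shRNA by elimination. Exons of METTL3 overlap those of TOX4 on the other strand. Total counts ran from 100534896 to 101473388 per shMETTL3 library and from 102420127 to 103624456 per shControl library. Of the 18740 genes tested, 33.5% passed an adjusted p of 0.05 (16.5% higher and 16.9% lower in shMETTL3 cells), and CPM (counts over library totals after TMM adjustment) of the groups did not overlap for 47.4%. The mRNAs of the mitochondrial genome took 5.78 to 6.53% of counts in shMETTL3 libraries and 3.00 to 3.37% in shControl libraries. The TMM scaling used here adjusts totals for composition on the assumption that most genes do not change, and that assumption was not tested. With the mitochondrial transcripts left out, 6267 genes were called, beside 6270 with them. With library size alone, the all-gene median was −0.11 on the log2 scale, beside −0.0030 with TMM, and 1985 genes were higher and 4727 lower, against 3099 higher and 3171 lower with TMM. Of 6 renal carcinoma markers, VIM and PAX8 rose (means of 1792 and 98.2 FPKM in shMETTL3 cells, against 956 and 77.9 FPKM in shControl cells). NNMT had −0.27 (adjusted p = 0.0559, edgeR), and KRT8, KRT18 and CDH2 did not pass at 0.01, −0.05 and 0.13. The labels call the cells epithelial, and KRT8 and KRT18 averaged 129 and 88.5 FPKM in shMETTL3 cells and 132 and 98.8 FPKM in shControl cells. Among 4 further epithelial markers KRT7 and KRT19 fell (means of 38.2 and 2.77 FPKM in shMETTL3 cells, against 62.7 and 4.48 FPKM in shControl cells). EPCAM and CDH1 were near absent, at or below 0.51 FPKM in shMETTL3 libraries and 0.61 FPKM in shControl libraries. The 4 leukocyte markers summed to 76.5 to 85.1 FPKM in shMETTL3 libraries and 40.1 to 47.5 FPKM in shControl libraries, nearly all of it CD68, a lysosomal protein made by many cells, which rose by 0.95 (adjusted p = 6.1e-05, edgeR). PTPRC, the defining leukocyte marker, was at or below 0.01 FPKM in shMETTL3 libraries and 0.03 FPKM in shControl libraries, and CD3E was listed at 0. The 4 endothelial markers summed to at most 0.07 FPKM in shMETTL3 libraries and 0.03 FPKM in shControl libraries, with PECAM1 at 0, and the 4 fibroblast markers to 0.42 to 0.92 FPKM in shMETTL3 libraries and 1.17 to 1.62 FPKM in shControl libraries. The part of these markers in the members' values was not tested.

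Of the 9 members tested, 4 passed the test with edgeR, which is 44.4% beside the 33.5% of all genes. In these bulk libraries, fewer cells with a transcript and less of it per cell cannot be told apart. MXI1, MXD1 and MNT rose in shMETTL3 cells and MYCL fell, while MYC, MAX, MXD3, MXD4 and MGA did not pass. The median log2 fold change of the 9 was 0.03, against −0.0030 for all genes. In CPM the groups did not overlap for 5 of the 9 (55.6%), beside 47.4% of all genes. These 5 were the 4 that passed and MXD4. The 3 rises were among the 6 partners that compete with MYC for MAX, where 16.5% of all genes were called higher. Of those 6, MXD3, MXD4 and MGA did not pass, and MNT kept its call in 9 of 17 alternatives. Scaling by library size alone split the calls into 2 higher and 2 lower, with MNT lost and MYC gained.

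**Figure D1:**
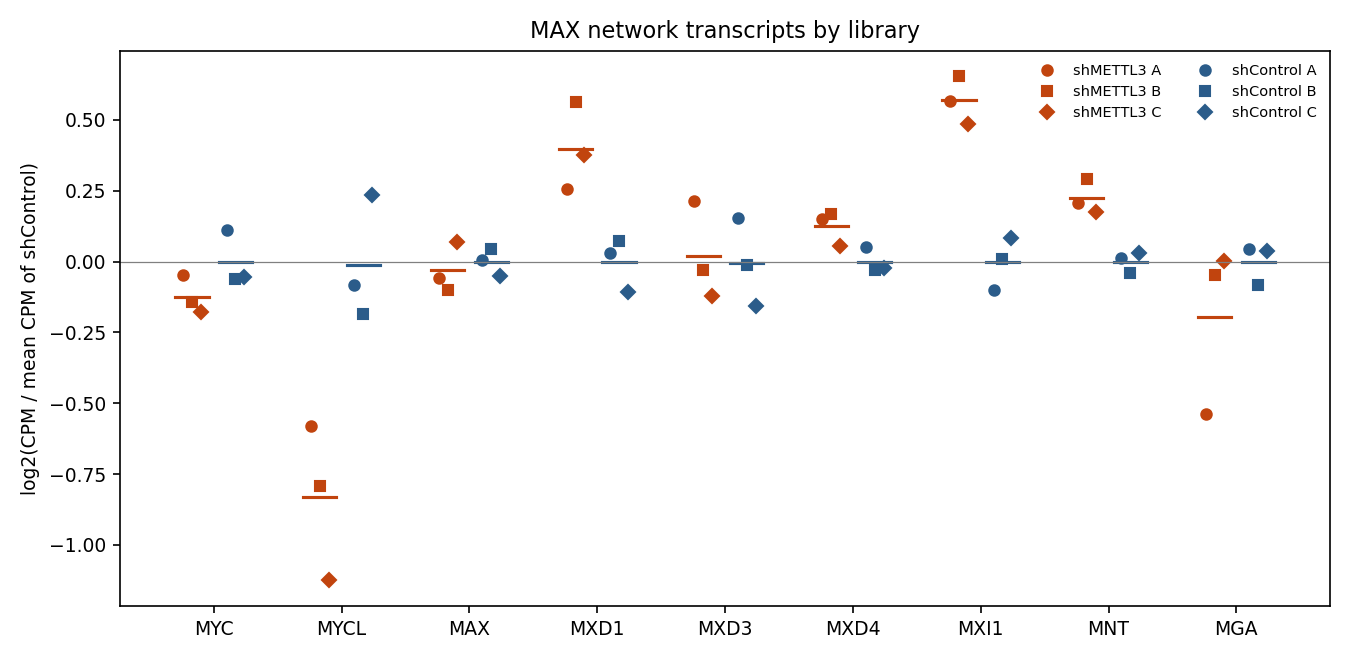
Level of each tested member in every library as log2 of its CPM over the mean CPM of shControl libraries, 1 point per library (letters as symbols), with lines at the group means. MXI1 was at 49.6 to 55.7 CPM in shMETTL3 libraries and at 33.03 to 37.5 CPM in shControl libraries, while the MYC groups overlapped.

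MYC (chr8:127735434-127741434, plus strand, GRCh38, GENCODE 29) was among the most abundant mRNAs of these cells, ranked 359 of the 13951 tested protein-coding genes by mean FPKM. In CPM it was at 583, 546 and 533 in shMETTL3 libraries A, B and C, and at 651, 578 and 580 in shControl libraries. The highest shMETTL3 library lay above 2 of the shControl libraries, so the groups overlapped. The log2 fold change was −0.12 (SE 0.09, 95% interval −0.31 to 0.06, adjusted p = 0.296, edgeR). The interval leaves room for a moderate fall and for none. The call depended on scaling. Without TMM, on library size alone, the fold change was −0.23 (adjusted p = 0.0262), and limma on log2(FPKM + 1) gave −0.22, with an adjusted p of 0.0376 when genes under 0.5 FPKM were filtered out and 0.0711 without that filter. The deposited FPKM, scaled to the library total, were 301, 282 and 283 in shMETTL3 libraries and 357, 321 and 334 in shControl libraries, with no overlap. Of 17 alternatives, 3 put MYC past the threshold, and all 17 kept its direction. Leaving out each library in turn gave −0.16 to −0.06 with adjusted p from 0.186 to 0.664.

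**Figure D2:**
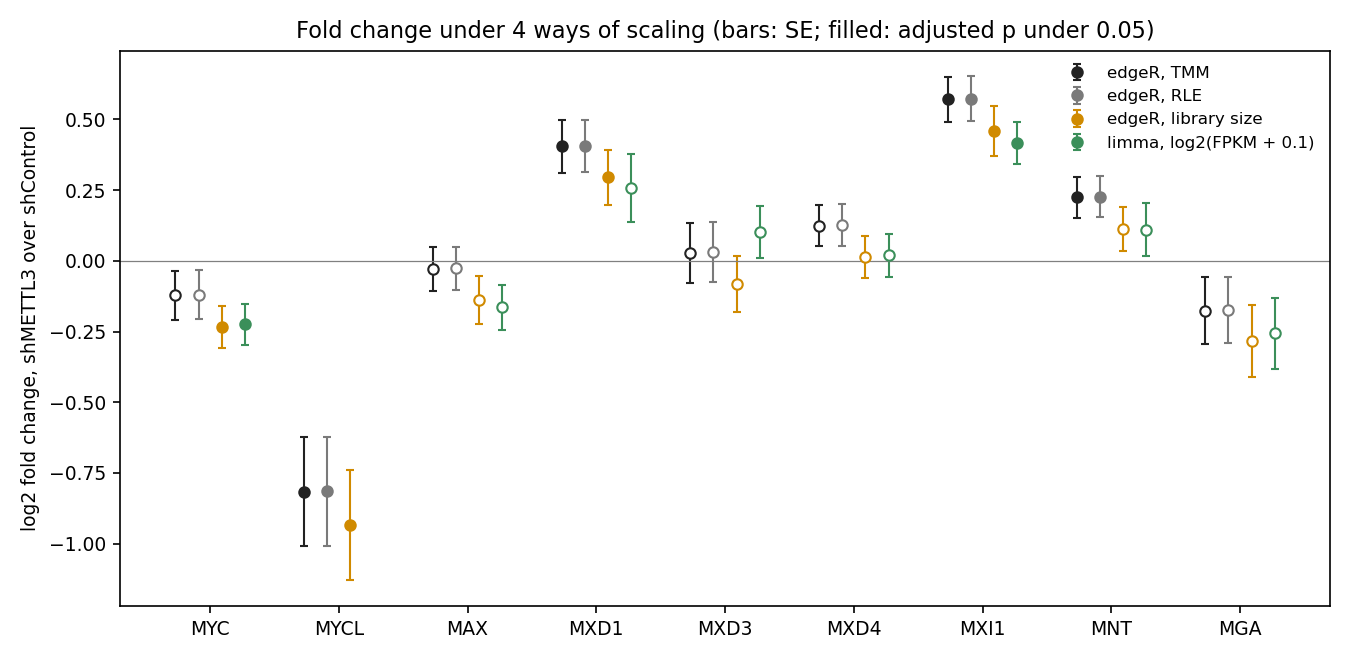
Log2 fold change of each tested member in shMETTL3 over shControl cells in 4 fits (edgeR with TMM, RLE or library size scaling, and limma on log2(FPKM + 0.1)), with bars for the SE and filled points for an adjusted p under 0.05. MYCL did not pass the filter of at least 0.5 FPKM in 3 libraries and has no limma point. MYC lay at −0.12 with TMM and at −0.23 with library size alone, while MXI1 was above 0.40 in all fits shown.

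MYCL (chr1:39895426-39902256, minus strand), the lung-type paralog of MYC, was scarce and was the member that fell. Its counts were 99, 88 and 72 in shMETTL3 libraries and 154, 147 and 203 in shControl libraries. Every shMETTL3 library lay below every shControl library. In CPM it averaged 0.89 ± 0.17 in shMETTL3 cells and 1.57 ± 0.24 in shControl cells (SD, n = 3 each). The log2 fold change was −0.82 (SE 0.19, 95% interval −1.23 to −0.40, adjusted p = 0.00614, edgeR), and the call held with each library left out (−0.95 to −0.68). On log2(FPKM + 1), which compresses values this low, it was −0.26 with an adjusted p of 0.0536 by limma. MYCN (chr2:15940564-15947007, plus strand), the neural paralog, had 0 counts in all 6 libraries. The limit that 3 counts set was 0.0299 to 0.0318 CPM per shMETTL3 library and 0.0273 to 0.0288 CPM per shControl library, for counting error only.

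MAX (chr14:65006174-65102695, minus strand) was at 24.8, 24.1 and 27.1 CPM in shMETTL3 libraries and at 25.9, 26.6 and 24.9 CPM in shControl libraries. The groups overlapped throughout. Its log2 fold change was −0.03 (SE 0.08, adjusted p = 0.805, edgeR), and the 95% interval of −0.20 to 0.14 bounds the difference on either side.

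MXI1 (chr10:110207605-110287365, plus strand), the most abundant of the repressing partners, showed the firmest change of the network. It was at 52.5, 55.7 and 49.6 CPM in shMETTL3 libraries and at 33.03, 35.6 and 37.5 CPM in shControl libraries. The lowest shMETTL3 library was well above the highest shControl library. The log2 fold change was 0.57 (SE 0.08, 95% interval 0.40 to 0.74, adjusted p = 2.6e-04, edgeR), a level 48.6% higher. It passed in all 17 alternatives, with fold changes of 0.40 to 0.62. The antisense locus annotated over its exons had 0 counts.

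MXD1 (chr2:69897688-69942945, plus strand), a MAX partner usually raised as cells differentiate, was at 18.2, 22.5 and 19.8 CPM in shMETTL3 libraries and at 15.5, 16.0 and 14.1 CPM in shControl libraries. The groups did not overlap. It rose by 0.40 on the log2 scale (SE 0.09, 95% interval 0.20 to 0.61, adjusted p = 0.00547, edgeR), and the call held with each library left out (0.32 to 0.47). The 3 fits on FPKM gave 0.21 to 0.26 and did not pass (adjusted p from 0.121 to 0.235, limma). Exons of MXD1 overlap those of SNRNP27 on the same strand, which had more counts than MXD1 itself, at 3615 to 3750 in shMETTL3 libraries and 3726 to 3948 in shControl libraries. SNRNP27 did not pass the test (log2 fold change 0.09, adjusted p = 0.402, edgeR).

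MXD4 (chr4:2247432-2262294, minus strand) and MXD3 (chr5:177301461-177312757, minus strand) did not pass. MXD4 was at 43.0, 43.6 and 40.2 CPM in shMETTL3 libraries and at 40.2, 37.9 and 38.1 CPM in shControl libraries, and the lowest shMETTL3 library only just cleared the highest shControl library. Its log2 fold change was 0.12 (SE 0.07, 95% interval −0.03 to 0.28, adjusted p = 0.208, edgeR). MXD3, a partner linked to proliferating cells, was at 17.4, 14.7 and 13.8 CPM in shMETTL3 libraries and at 16.7, 14.8 and 13.4 CPM in shControl libraries. The MXD3 groups overlapped, with a log2 fold change of 0.03 (SE 0.11, 95% interval −0.20 to 0.26, adjusted p = 0.862, edgeR). Its exons overlap those of RAB24 and PRELID1, both of which had more counts, so its level is uncertain.

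MNT (chr17:2384060-2401118, minus strand), a broadly expressed antagonist of MYC, had a small rise. It was at 39.8, 42.2 and 38.9 CPM in shMETTL3 libraries and at 34.8, 33.5 and 35.2 CPM in shControl libraries, without overlap. The log2 fold change was 0.23 (SE 0.07, 95% interval 0.07 to 0.38, adjusted p = 0.0296, edgeR). The call was lost under library size alone (0.11, adjusted p = 0.277), on FPKM, and when shMETTL3 library B or any of the shControl libraries was left out (adjusted p from 0.0595 to 0.112). An antisense locus over MNT had 288 to 320 counts in shMETTL3 libraries and 232 to 263 counts in shControl libraries, and it also rose (log2 fold change 0.40, adjusted p = 0.0291, edgeR).

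MGA (chr15:41621224-41773081, plus strand), by far the longest transcript among the members, was at 37.9, 53.2 and 55.1 CPM in shMETTL3 libraries and at 56.7, 52.0 and 56.5 CPM in shControl libraries. Library A alone stood low. The log2 fold change was −0.18 (SE 0.12, 95% interval −0.43 to 0.08, adjusted p = 0.268, edgeR), and −0.03 without shMETTL3 library A (adjusted p = 0.822). In that library MGA lay 0.51 below the other shMETTL3 libraries on the log2 scale. Over the 2427 genes whose implied length was 4000 to 8000 bases the median deviation of library A was −0.14, and over the 4394 genes under 1000 bases it was 0.10. The part of transcript length in the MGA value was not tested.

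On the FPKM scale, which allows levels of different genes to be compared, both groups had the same order. In shMETTL3 cells the means were 289 for MYC, 34.4 for MXI1, 20.6 for MAX, 13.1 for MXD4, 11.1 for MXD3, 10.3 for MNT, 7.27 for MGA, 3.68 for MXD1 and 0.29 for MYCL. In shControl cells they were 337 for MYC, 25.8 for MXI1, 23.0 for MAX, 12.9 for MXD4, 10.3 for MXD3, 9.52 for MNT, 8.63 for MGA, 3.05 for MXD1 and 0.55 for MYCL, and MYCN was listed at 0 in both. Only MXD3 and MNT, neighbours in that order, overlapped within a group. MYC mRNA therefore exceeded MAX mRNA by 14.1 ± 1.39 times in shMETTL3 cells and by 14.6 ± 0.32 times in shControl cells (SD, n = 3 each).

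**Figure D3:**
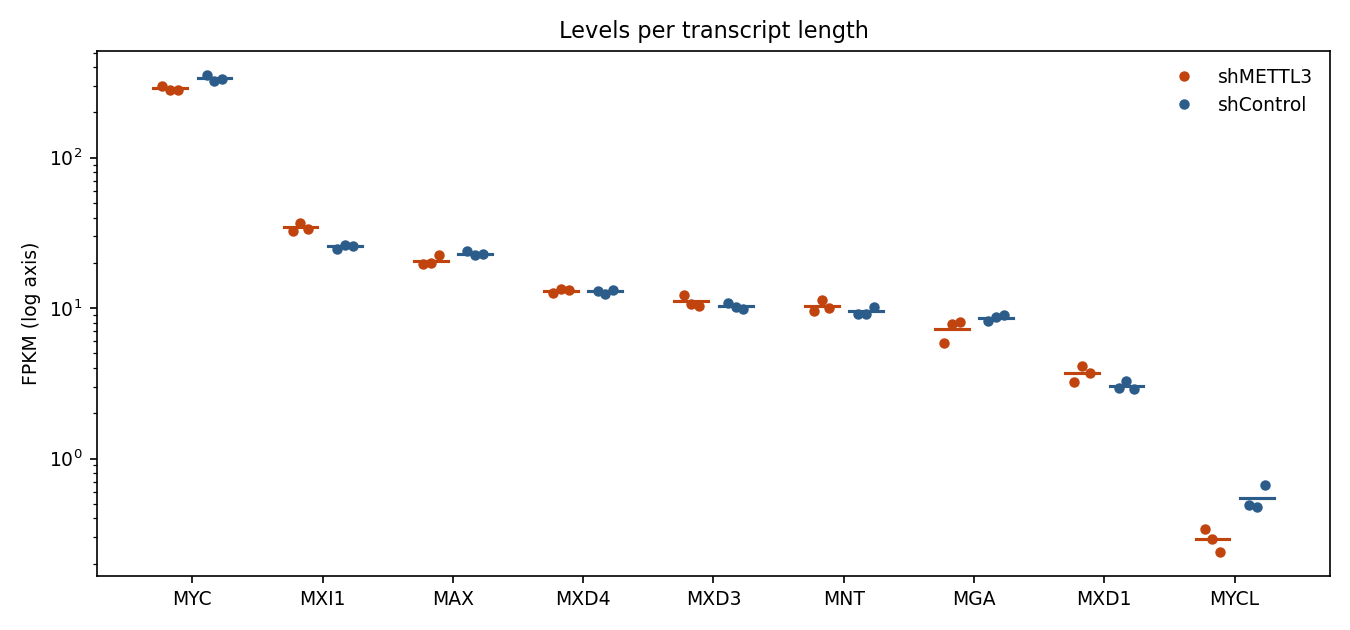
Deposited FPKM of the members on a log axis, with shMETTL3 and shControl libraries as points and lines at the group means. MYC was the highest in every library and MYCL the lowest of the members detected, and only MXD3 and MNT overlapped as neighbours in the order.

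The balance between the activating and the repressing partners of MAX was described without a test, since it combines the values above. The 6 repressing partners summed to 76.3, 84.1 and 79.0 FPKM in shMETTL3 libraries and to 68.9, 70.2 and 71.3 FPKM in shControl libraries. As a share of all partners they made up 20.2, 23.0 and 21.8% in shMETTL3 libraries and 16.2, 17.9 and 17.5% in shControl libraries. Every shMETTL3 library was above every shControl library. That share also depends on the activating sum, nearly all of it MYC, which averaged 289 FPKM in shMETTL3 cells and 338 FPKM in shControl cells. MYC itself did not pass with edgeR and TMM. MXI1 made up 43.1% of the repressing sum in shMETTL3 cells and 36.7% in shControl cells. The sum averaged 79.8 FPKM in shMETTL3 cells and 70.1 FPKM in shControl cells, and MXI1 alone 34.4 and 25.8 FPKM. Most of the rise in the sum was therefore MXI1. Of the other repressing partners, MXD1, MXD3, MXD4 and MNT averaged slightly higher in FPKM in shMETTL3 cells and MGA lower. MYC exceeded MXI1 by 9.22, 7.64 and 8.39 times in shMETTL3 libraries and by 14.4, 12.1 and 12.8 times in shControl libraries. These are ratios of mRNA and not of protein.

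The count and the FPKM of a gene together imply the transcript length assumed for that gene in each library, which can shift where the mix of isoforms differs. None of the 18614 genes with such a length passed limma at an adjusted p of 0.05, while 1748 had an unadjusted p under 0.05. Among the members MXD3 had the widest gap, at 1326, 1325 and 1324 bases in shMETTL3 libraries and 1552, 1511 and 1464 bases in shControl libraries, with no overlap (log2 difference −0.19, SE 0.03, adjusted p = 0.215, limma). The part of its shared exons with RAB24 and PRELID1 in that value was not tested. MXI1 implied 1470 ± 33.6 bases in shMETTL3 cells and 1429 ± 104 bases in shControl cells (SD, n = 3 each), and MYC implied 1846 ± 24.1 bases in shMETTL3 cells and 1857 ± 21.1 bases in shControl cells.

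The letters GGACT, a frequent form of the sequence that METTL3 methylates, were counted on the sense strand of the longest annotated coding transcript of each member. MYCL held 6 (1.84 per 1000 bases), MYC 4 (1.69), MNT 7 (1.40), MYCN 3 (1.15) and MAX 3 (0.95). MGA held 9 (0.62), MXI1 2 (0.58), MXD4 2 (0.49), MXD3 1 (0.44) and MXD1 2 (0.36). The median over 13945 tested transcripts was 0.94 per 1000 bases. Within 200 bases of the stop codon, where m6A is known to gather, MYC and MXD1 had 2 each, MNT, MXD3 and MYCN 1 each, and the other members none. At least 1 lay there in 37.5% of the transcripts. A match says nothing of whether the site carried m6A in these cells.

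The MLX branch runs parallel to MAX and senses glucose through MLXIP and MLXIPL. The list of 6 genes drawn up for it also held TFAP4, which is not part of the branch. Of these 6, 2 fell, 4 did not pass and none rose (33.3% called, near the 33.5% of all genes), with a median log2 fold change of −0.07. MLX, the partner shared by that branch, was at 81.1 ± 4.78 CPM in shMETTL3 cells and 99.3 ± 5.67 CPM in shControl cells (log2 fold change −0.29, SE 0.08, adjusted p = 0.0122, edgeR). ARRDC4, an arrestin that the branch activates, had a log2 fold change of −0.28 (adjusted p = 0.0285). Neither call was firm, since MLX lost it without shMETTL3 library B or shControl library B (adjusted p = 0.0643 and 0.0540, edgeR). ARRDC4 lost it without shMETTL3 library A or B or shControl library B or C (adjusted p from 0.0593 to 0.126). MLXIP had −0.10 and TFAP4, an E-box factor downstream of MYC, had 0.13. TXNIP, the main glucose-responsive target, had 0.06, and MLXIPL averaged 0.13 CPM in shMETTL3 cells and 0.14 CPM in shControl cells. Exons of MLX overlap those of PSMC3IP, and of genes named further on RBBP4, KAT2A, EP300, L3MBTL2, STAG3, SYCP3, PVT1, PCAT1, NIP7, NOP2, PLK1 and NDRG2 also overlap other genes, which makes their counts less certain.

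The corepressors that MXD proteins and MNT recruit moved in both directions. Of 14, 6 rose and 4 fell (71.4% called, beside 33.5% of all genes), with a median log2 fold change of −0.04. Rises included SAP30, a SIN3 complex subunit, at 14.1 ± 1.35 CPM in shMETTL3 cells and 8.86 ± 0.45 CPM in shControl cells (0.67, SE 0.09, adjusted p = 2.8e-04, edgeR). SUDS3 rose by 0.48 and the histone chaperone RBBP4 by 0.41. BRMS1, another SIN3 subunit, fell by 0.65 to 36.7 ± 2.53 CPM in shMETTL3 cells, against 57.6 ± 2.62 CPM in shControl cells (adjusted p = 1.1e-04, edgeR). With library size alone the same list had 4 rises and 6 falls.

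Of 16 MYC coactivators, 1 rose, 1 fell and 14 did not pass (12.5% called, beside 33.5% of all genes). The acetyltransferase CREBBP had −0.34 (adjusted p = 0.0260, edgeR). The acetyltransferases EP300 and KAT2A had −0.26 and 0.15 (adjusted p = 0.0816 and 0.107). CREBBP lost its call without shMETTL3 library A or B or shControl library A or C (adjusted p from 0.0665 to 0.0833), and its value was −0.23 without shMETTL3 library A. EP300 was at −0.14 without that library. The reference transcripts of EP300 and CREBBP are long, at 9587 and 10803 bases. Over the 327 genes whose implied length was over 8000 bases, the median deviation of shMETTL3 library A was −0.22. The part of transcript length in these 2 values was not tested. With library size alone, 4 of the 16 fell and none rose.

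Of the 11 genes of the MGA complex PRC1.6, 2 rose, 2 fell and 7 did not pass (36.4% called, near the 33.5% of all genes), with a median log2 fold change of −0.12. TFDP2, a partner of E2F6, rose by 0.53 (SE 0.08, adjusted p = 4e-04, edgeR). PCGF6, the subunit that defines this Polycomb variant, fell by 0.43 (adjusted p = 0.00604). L3MBTL2 had −0.29 (adjusted p = 0.0135), lost without shMETTL3 library B or shControl library C (adjusted p = 0.0668 and 0.0590). TFDP1 had 0.22 (adjusted p = 0.0431), lost under library size alone and without any one library other than shMETTL3 library C (adjusted p from 0.0828 to 0.284). With library size alone the list had 1 rise and 6 falls. Of 12 germline genes that MGA complexes are known to silence, 4 passed the filter and 1 was called (25%, beside 33.5% of all genes). TAF7L, a germ cell subunit of the basal machinery, was at 0.05 ± 0.03 CPM in shMETTL3 cells and 0.24 ± 0.16 CPM in shControl cells. Its call was lost without shMETTL3 library A or shControl library C (adjusted p = 0.0568 and 0.0712, edgeR). At 46 counts or fewer per library, TAF7L passed the filter on low counts through the shControl libraries, where it was higher. Its call and the share called therefore depend on that filter. With 1 library left out, 4 or 5 of the 12 were tested. STAG3, SYCP3 and MAEL did not pass, at log2 fold changes of −0.50, 0.61 and −0.49.

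Of 17 tested genes for proteins that stabilise or degrade MYC, 4 rose and 1 fell (29.4% called, beside 33.5% of all genes), with a median log2 fold change of 0.02. AURKA, a mitotic kinase that shields MYC proteins from degradation, was at 48.5 ± 3.39 CPM in shMETTL3 cells and 30.2 ± 1.01 CPM in shControl cells (0.68, SE 0.08, adjusted p = 8.4e-05, edgeR). CIP2A, an inhibitor of the phosphatase that destabilises MYC, rose by 0.58 and the ubiquitin ligase subunit SKP2 by 0.38. FBXO32, another ligase subunit, fell by 0.38 (adjusted p = 0.00261). Scaled by library size alone, 3 rose and 4 fell.

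Of 14 tested genes for proteins that bind MYC mRNA, 5 rose and 3 fell (57.1% called, beside 33.5% of all genes), with a median of −0.0088. PABPC1, the cytoplasmic poly(A) binding protein, averaged 2580 ± 173 CPM in shMETTL3 cells and 1778 ± 56.1 CPM in shControl cells (0.54, SE 0.09, adjusted p = 8.8e-04, edgeR). IGF2BP2, a reader that protects methylated MYC mRNA, rose by 0.44 (adjusted p = 0.00654). The helicase DHX9 fell by 0.36 and YTHDF2, a reader that promotes decay, fell by 0.28 (adjusted p = 0.00587 and 0.00926). Scaled by library size alone, 2 rose and 5 fell. PABPC1 has near-identical relatives and pseudogenes, between which reads may be split.

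Of the noncoding RNAs around MYC, 3 of 5 could be tested and 1 was called (33.3%, near the 33.5% of all genes). PVT1, the long neighbour of MYC, was at 124 ± 11.8 CPM in shMETTL3 cells and 134 ± 5.42 CPM in shControl cells, with a log2 fold change of −0.12 (adjusted p = 0.289, edgeR), and −0.05 without shMETTL3 library B. PCAT1 had −0.50 (adjusted p = 0.0310), lost without shMETTL3 library A or any of the shControl libraries (adjusted p from 0.0520 to 0.109). CASC11 had −0.60 (adjusted p = 0.146) at under 1 CPM.

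Genes known to be activated by MYC, many of them for ribosome production, were mostly lower. Of 60 tested, 32 fell, 7 rose and 21 did not pass (65% called, beside 33.5% of all genes), and the median log2 fold change was −0.25, against −0.0030 over all genes. RRP9, which processes ribosomal RNA, was at 23.1 ± 1.77 CPM in shMETTL3 cells and 36.6 ± 1.34 CPM in shControl cells (−0.67, SE 0.08, adjusted p = 1.1e-04, edgeR). NIP7 fell by 0.65 and the rRNA methyltransferase NOP2 by 0.63. PLK1, a mitotic kinase, rose by 0.89 to 69.2 ± 4.39 CPM in shMETTL3 cells, against 37.3 ± 4.84 CPM in shControl cells (SE 0.10, adjusted p = 6.5e-05, edgeR). The other rises were PLK4, TERT, MCM4, UNG, SLC19A1 and TMEM97 (0.92, 0.69, 0.63, 0.39, 0.25 and 0.22), named after their values were seen. Under library size alone 38 fell and 5 rose, with a median of −0.36 beside −0.11 over all genes. The part of MYC in these values was not tested.

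Genes known to be repressed by MYC showed no common direction. Of 7 tested, 2 rose and 3 fell (71.4% called, beside 33.5% of all genes), and the median was −0.14. The cell cycle inhibitor CDKN1B rose by 0.39 (SE 0.07, adjusted p = 0.00150, edgeR), with means of 38.2 CPM in shMETTL3 cells and 29.1 CPM in shControl cells. CEBPD rose by 0.41 and NDRG2, of the family named for repression by N-myc, fell by 0.66. GADD45A, a stress response gene, had −0.42 (adjusted p = 0.0187), lost without shMETTL3 library A or B or shControl library C (adjusted p from 0.0540 to 0.0918).

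**Figure D4:**
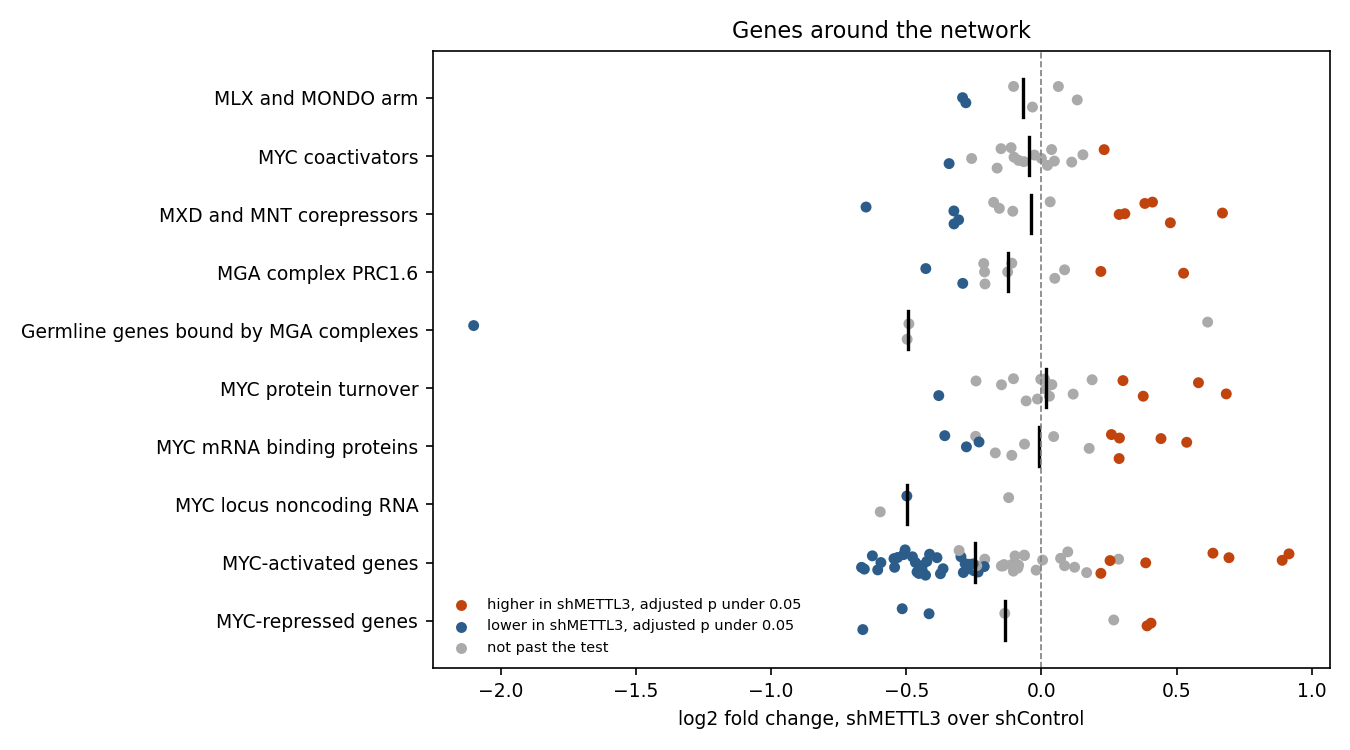
Log2 fold change in shMETTL3 over shControl cells for each tested gene of the network's gene lists, 1 point per gene coloured by call, with a bar at each list's median and a dashed line at the median of all tested genes. The 60 MYC-activated genes centre at −0.25 and the 14 corepressors at −0.04, beside −0.0030 for all genes.

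The genes most like MYC across libraries were found among 11400 protein-coding genes by the root mean square difference of mean-centred log2 CPM over the 6 libraries. They were RRP7A (0.02), FBXO27 (0.03), PPP5C (0.03), OSGEP (0.03) and SLC48A1 (0.03), where the median gene was at 0.16. Their group difference entered that measure, so it is not a separate result. RRP7A has a near-identical pseudogene copy, so its counts are less certain.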

How the data were processed

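Total RNA from 3 shMETTL3 and 3 shControl libraries was depleted of ribosomal RNA and sequenced from both ends, per the labels' protocols. Per the submitters' processing notes, STAR 2.7.10b and Salmon were used with GRCh38. Annotation and strand use are not given in the sources used, so the assignment of reads in exons that genes share is uncertain. The authors deposited whole-number counts per gene and FPKM values, with 61860 rows each. Columns carrying the number of an unexplained construct were taken as shMETTL3 by elimination.

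Counts were filtered with filterByExpr, scaled by TMM and tested in edgeR 4.0.16 (quasi-likelihood, R 4.3.3), with Benjamini-Hochberg adjustment over 18740 genes at 0.05. CPM are counts over TMM-scaled totals. Implied length, the count over FPKM scaled by the library total, was tested with limma 3.58.1. Positions came from GENCODE 29 on GRCh38, which held 58308 of the identifiers. At these depths counting error matters for scarce genes alone. Chi-square per degree of freedom between libraries within groups was 16.5 to 62.8, above sampling noise. The procedure was tested on simulated counts.

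The members and gene lists were chosen with earlier results of these data known, and the lists came from general knowledge of the network. Named genes were METTL3, the members, the up to 4 genes of each list with the smallest p, every gene of lists of 6 or fewer, the 5 genes most like MYC averaging at least 2 CPM, and cell type markers. A gene that met this rule is not reported here. Length classes and the removal of mitochondrial transcripts were chosen after seeing the data. Alternatives were DESeq2-type size factors, library size alone, DESeq2 1.42.0, limma-voom, other filters, limma on FPKM with a pseudocount of 1 or 0.1, a block for the column letter, and leaving out each library.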

Additional observations from a re-analysis of the deposited data

How the results depend on the processing

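MXI1 and METTL3 kept their calls under all 17 alternatives run for them, MXD1 under 14 of 17, MYCL under 14 of 15 and MNT under 9 of 17. The count of genes called was 6270, 3271 by limma on log2(FPKM + 1) without a filter, and 4012 to 6589 with 1 library left out, the lowest without shMETTL3 library B. Of the members, 4 were called by edgeR, 2 by limma on FPKM of at least 0.5 in 3 libraries with either pseudocount, 1 without that filter, and 3 to 4 with 1 library left out. MYCL did not pass that FPKM filter and was not tested in the filtered fits. MYC passed at −0.23 under library size alone and at −0.22 on filtered FPKM with either pseudocount, but not on unfiltered FPKM (−0.22, adjusted p = 0.0711, limma). Implied length gave 0 calls and 0 to 2 with 1 library left out (2 without shMETTL3 library C, 1 without shMETTL3 library B), and the lists gave 77 calls and 51 to 85, with 51 without shMETTL3 library B.

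Directions turned for small values that did not pass. Under library size alone MXD3 was −0.083 and TXNIP −0.052. With 1 library left out, log2 fold changes ran from −0.076 to 0.0088 for MAX (positive without shMETTL3 library B), from −0.078 to 0.11 for MXD3 (negative without shMETTL3 library A or shControl library C) and from −0.32 to 0.29 for MLXIPL. The log2 difference of implied length ran likewise from −0.013 to 0.0022 for MYC, −0.016 to 0.068 for MAX, −0.027 to 0.017 for MXD4 and −0.021 to 0.037 for MNT, which was at −0.0005 with at least 1 CPM in 3 libraries. The cause was not tested.

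The column letters gave no consistent pairing of the libraries. Same-letter deviations correlated at 0.039, −0.081 and 0.281, and only the C libraries correlated best with their own letter. Across letters, shMETTL3 library B reached 0.25 with shControl library A, and shMETTL3 library A 0.162 with shControl library B. A pairing across letters was not fitted. With the letter as a replicate block, 6985 genes, 4 members, 85 list genes and 0 implied lengths passed, and MYC was at −0.12 (adjusted p = 0.202, edgeR). With 3 libraries a group, and MYCL at 203 counts or fewer, small differences in scarce members may have been missed.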
